A study of Homo sapiens with 6 samples.

Results

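The passage from 4 h to 6 h after release from a thymidine block was examined in RPE-1 cells that had received only the solvent DMSO. It compares the 3 libraries collected at 6 h (6h_DMSO) with the 3 collected at 4 h (4h_DMSO), chosen by their condition in the column names and paired by experiment, with A, B and C read as the separate repeats that the submitters describe. These are 6 of the 17 libraries used here. RPE-1 is an immortalised human line from retinal pigment epithelium. Cells were held at the start of S phase by 2 mM thymidine for 24 h and washed 3 times. DMSO was added 1 h after the wash, so 6h_DMSO cells had 5 h of DMSO and 4h_DMSO cells had 3 h. The other conditions were the ATR inhibitor AZ20 (2 µM) for the same times (6h_ATRi, 2 libraries, and 4h_ATRi, 3 libraries), cells kept in the block (arrested, 3 libraries) and asynchronous cells (cycling, 3 libraries). All of them come from the same line, and the arrested cells had the block as the released cells did.

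The submitters' design text places cells at 4 h in late S phase and cells at 6 h in G2. In this window a cell finishes copying its DNA and prepares for mitosis. The genes that licence and copy DNA are driven by E2F factors early in the cycle and are switched off as S phase ends. Genes for mitotic entry, the spindle and the kinetochore are repressed by the DREAM complex in early phases and are later activated by MYBL2 and FOXM1, in part through a promoter element called CHR, often next to a CCAAT box.

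Counts per library ran from 1784999 to 2180968 in 6h_DMSO and from 1926531 to 2188389 in 4h_DMSO. At this depth a feature at 1 CPM (counts scaled to a common library size by TMM) has about 2 counts. Libraries were made with a stranded kit, but most counts lay on the strand opposite to coding genes. Where a coding gene has an annotated antisense feature, that feature held more counts than the gene in 1234 of 1568 cases. A value of a feature that overlaps another on the opposite strand is therefore uncertain as to the gene. Such a feature is given with its partner ("opposite PLK1"). Where a gene has no annotated feature opposite it, reads from that strand may have gone uncounted, so its value may understate its level. Experiment B stood apart from A and C along the first principal component in all conditions (16.4 to 44.9, against -24.4 to -9.4). In each letter, 6h_DMSO was below 4h_DMSO for NEAT1, a nuclear RNA (11.7, 55.8 and 26.8 CPM, against 28.5, 69.9 and 40.9 CPM in A, B and C), and for the mitochondrial rRNA MT-RNR1 (42.9, 231 and 47.1 CPM, against 70.9, 287 and 122 CPM). The part of these shifts in the results below was not tested. Calls numbered 99 higher and 52 lower with the most abundant feature and the mitochondrial genes left out. Of 12 pigment epithelium markers 5 were kept, with summed levels of 14600 to 19400 CPM in 6h_DMSO and 15000 to 21000 CPM in 4h_DMSO. Most of this sum came from BEST1 (opposite FTH1). The defining markers RPE65, RLBP1, LRAT and MERTK had under 2 CPM in every DMSO library and TTR was at 0. Of 16 markers of other cell types 15 were found, with sums of 2.74 to 7.53 CPM in 6h_DMSO and 2.46 to 10.4 CPM in 4h_DMSO. Of these, 8 were at 0, CD3E and VWF among them. CD3E and VWF have no annotated opposite feature, so such zeros cannot show that other cell types were absent.

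The promoters of 6 genes are shown here from RefSeq (GRCh38.p14), each from 250 bases before to 50 bases after the annotated start, 5′ to 3′ along the gene. PLK1, GPSM2, SAPCD2 and CCNF are mitotic genes whose opposite features rose, TOP2A rose itself with no feature opposite it, and CDC6 is the S phase gene that fell on its own feature. Capitals mark TTTGAA (the CHR), CCAAT and the E2F motif TTTGGCGC, on either strand (TTCAAA and ATTGG are the reverse of the first pair). The motifs do not overlap one another in these 6 windows. They are PLK1 (chr16:23678639-23678938, plus strand), GPSM2 (chr1:108876735-108877034, plus), SAPCD2 (chr9:137070508-137070807, minus), CCNF (chr16:2429197-2429496, plus), TOP2A (chr17:40417847-40418146, minus) and CDC6 (chr17:40287629-40287928, plus).
PLK1: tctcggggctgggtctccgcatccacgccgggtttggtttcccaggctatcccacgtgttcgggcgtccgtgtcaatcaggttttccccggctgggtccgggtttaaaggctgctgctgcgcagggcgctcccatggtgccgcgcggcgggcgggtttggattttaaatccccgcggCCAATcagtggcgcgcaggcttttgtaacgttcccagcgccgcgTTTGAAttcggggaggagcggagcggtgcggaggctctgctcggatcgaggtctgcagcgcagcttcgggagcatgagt
GPSM2: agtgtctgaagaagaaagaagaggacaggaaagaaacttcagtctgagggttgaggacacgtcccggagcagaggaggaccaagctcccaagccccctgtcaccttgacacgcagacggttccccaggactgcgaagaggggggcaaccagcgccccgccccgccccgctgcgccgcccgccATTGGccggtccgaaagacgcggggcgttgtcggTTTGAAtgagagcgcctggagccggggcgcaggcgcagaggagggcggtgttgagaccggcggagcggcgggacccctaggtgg
SAPCD2: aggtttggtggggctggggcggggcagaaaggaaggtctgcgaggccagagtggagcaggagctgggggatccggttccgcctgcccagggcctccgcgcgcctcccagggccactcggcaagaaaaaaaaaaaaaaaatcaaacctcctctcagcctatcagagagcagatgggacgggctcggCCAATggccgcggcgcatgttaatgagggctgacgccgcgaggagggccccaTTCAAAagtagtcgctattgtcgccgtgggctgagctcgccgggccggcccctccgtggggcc
CCNF: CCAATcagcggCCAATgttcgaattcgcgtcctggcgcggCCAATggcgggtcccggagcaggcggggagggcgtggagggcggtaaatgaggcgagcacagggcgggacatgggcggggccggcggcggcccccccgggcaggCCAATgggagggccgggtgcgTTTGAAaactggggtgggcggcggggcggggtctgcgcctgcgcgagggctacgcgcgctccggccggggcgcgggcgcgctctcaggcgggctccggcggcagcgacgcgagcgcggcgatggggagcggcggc
TOP2A: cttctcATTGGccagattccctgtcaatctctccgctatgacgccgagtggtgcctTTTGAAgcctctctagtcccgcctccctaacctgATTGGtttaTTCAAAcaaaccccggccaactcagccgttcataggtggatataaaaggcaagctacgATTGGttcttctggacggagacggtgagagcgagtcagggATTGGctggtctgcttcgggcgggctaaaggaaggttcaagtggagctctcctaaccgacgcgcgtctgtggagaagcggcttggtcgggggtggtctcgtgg
CDC6: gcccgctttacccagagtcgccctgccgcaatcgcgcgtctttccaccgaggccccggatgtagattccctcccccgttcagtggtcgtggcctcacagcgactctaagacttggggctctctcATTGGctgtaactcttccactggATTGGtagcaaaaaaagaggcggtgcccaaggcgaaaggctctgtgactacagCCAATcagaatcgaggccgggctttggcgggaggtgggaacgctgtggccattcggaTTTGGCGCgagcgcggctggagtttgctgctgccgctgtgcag

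The first letter of the CHR lay at position -29 from the start in PLK1, -34 in GPSM2 and -85 in CCNF. In SAPCD2 the reverse of the CHR began at -13, and TOP2A held a CHR on each strand. CDC6 held no CHR in this window and held TTTGGCGC at position 7. Over the whole G2 and mitosis list 70 of the 114 genes with a RefSeq promoter (61.4%) had a CHR on either strand, against 4212 of 27305 promoters in all (15.4%). Among listed genes called higher at 6 h, themselves or through the feature opposite, 22 of 29 had one (75.9%). Of the S phase list 4 of 63 had one (6.35%). CCAAT was in 67.5% of the G2 and mitosis promoters, 54% of the S phase promoters and 35.7% of all. TTTGGCGC was in 19% of the S phase promoters, 4.39% of the G2 and mitosis promoters and 0.659% of all, and TTTCCCGC, a second E2F motif, in 19%, 2.63% and 1.66%. These are matches of letters and say nothing of binding, and the lists were chosen with earlier results of these data known.

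From 4 h to 6 h, 88 of the 13510 features tested rose (0.651%) and 53 fell (0.392%), by edgeR's quasi-likelihood test with the experiment as a block and Benjamini-Hochberg adjustment (adjusted p under 0.05). Of the 10 risen features with the lowest adjusted p, 9 lay opposite a gene of the G2 and mitosis list, and the falls included features opposite CCNE2, USP37 and RAD54L. All 141 called features (1.04%) moved the same way in the 3 experiments, which a test with the experiment as a block favours. The 6h_DMSO and 4h_DMSO values did not overlap for 74 of the 88 and 42 of the 53, against 9.61% of all features. The calls were made on these same values, so a higher share among them is no separate support. The log2 fold change reached 2.20 among the risen features (median 0.82) and -3.66 among the fallen (median -0.73). More than 2-fold changes numbered 31 up and 14 down, and the median over all features was -0.01. Of the called features, 63 of 88 and 42 of 53 were overlapped on the opposite strand. In bulk RNA, more cells in a phase and more RNA per cell cannot be told apart.

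The calls rest on the pairing by experiment. Without the block 9 features were called higher and 2 lower, namely AC005339.1, CLCC1, AL807752.3, ERN2, AC008870.3, GNB3, SAPCD2, AL138789.1 and AP000648.3, and VIL1 and MSC-AS1. Every other call named in this text was not called without the block. With each of the 6 DMSO libraries left out in turn, 47 of the 141 features were called every time (35 higher and 12 lower) and none changed sign. The counts were lowest without experiment A of 6h_DMSO, at 48 higher and 20 lower.

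**Figure D1:**
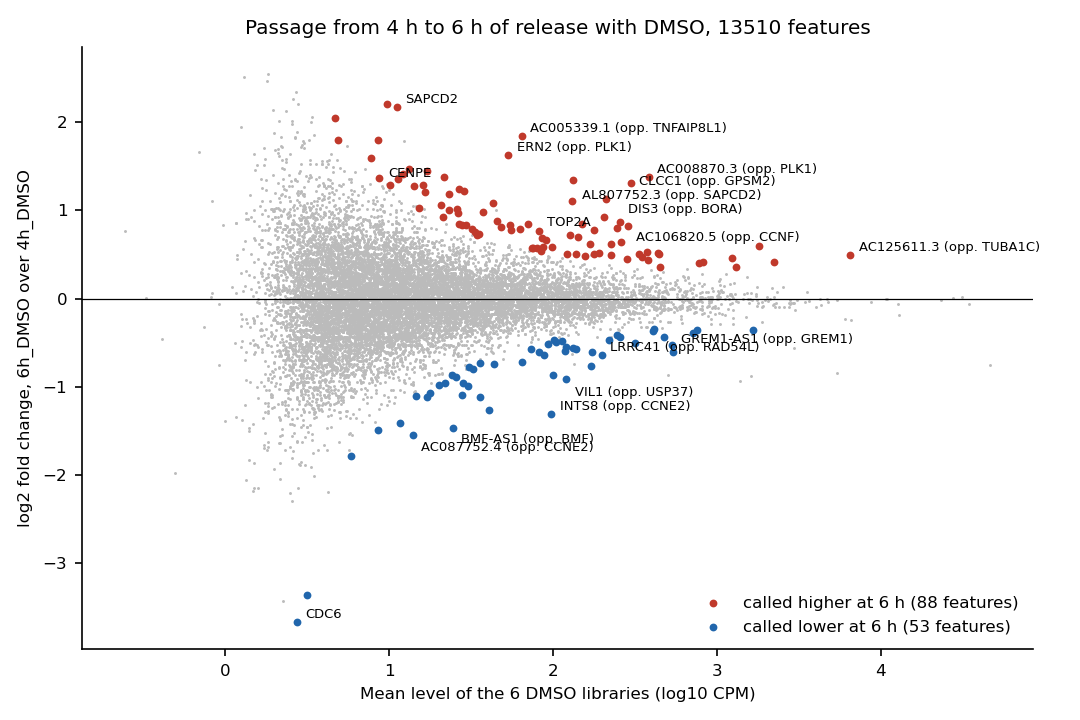
Each point is 1 of 13510 features, with the log2 fold change of 6h_DMSO over 4h_DMSO on the y axis and the mean level of the 6 libraries (log10 CPM) on the x axis. The 88 features called higher are red, the 53 called lower are blue, and "opp." names the gene on the opposite strand. Labelled red points include the features opposite PLK1, GPSM2 and SAPCD2, and CDC6 is the lowest blue point at -3.66.

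At the PLK1 locus, which encodes the kinase that drives mitotic entry and spindle assembly, both features opposite the gene rose. AC008870.3 had 719, 471 and 475 CPM in A, B and C of 6h_DMSO, against 277, 185 and 175 CPM in 4h_DMSO. The groups were far apart in each experiment, and A was highest in both. The log2 fold change was 1.38 ± 0.11 (SE; adjusted p = 4.26e-19). ERN2, named for an endoplasmic reticulum stress sensor and also opposite PLK1, had 97.9, 84.9 and 58.6 CPM in 6h_DMSO, against 27, 25.3 and 25.6 CPM in 4h_DMSO (log2 1.63 ± 0.18, adjusted p = 1.62e-11). PLK1 itself had 24.7, 17.1 and 20.8 CPM in 6h_DMSO, against 10.5, 12.9 and 9.35 CPM in 4h_DMSO. These values did not overlap either, but the test did not call them (log2 0.94 ± 0.28, adjusted p = 0.0792). DIS3, the catalytic subunit of the RNA exosome, lies opposite BORA, the activator of PLK1, and opposite PIBF1. It had 391, 342 and 259 CPM in 6h_DMSO, against 238, 150 and 156 CPM in 4h_DMSO, and rose (log2 0.87 ± 0.11, adjusted p = 5.81e-09). BORA itself had 28, 28.1 and 26.8 CPM in 6h_DMSO and 28.9, 18.8 and 27.6 CPM in 4h_DMSO, which overlapped (log2 0.15, adjusted p = 0.93).

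Features opposite genes that orient or build the spindle rose in the same way. CLCC1, an endoplasmic reticulum chloride channel gene, lies opposite GPSM2, which ties spindle microtubules to the cell cortex. It had 497, 391 and 385 CPM in 6h_DMSO, against 215, 165 and 137 CPM in 4h_DMSO. Every 6 h library was above every 4 h library (log2 1.31 ± 0.11, adjusted p = 5.15e-20). GPSM2's own feature had 268, 241 and 246 CPM in 6h_DMSO and 327, 237 and 288 CPM in 4h_DMSO, which overlapped (log2 -0.17 ± 0.10, adjusted p = 0.699).

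SAPCD2, a regulator of spindle orientation, rose on its own feature and on both features opposite it. SAPCD2 had 14.9, 21.1 and 18.6 CPM in 6h_DMSO, against 4.49, 2.48 and 4.92 CPM in 4h_DMSO (log2 2.17 ± 0.36, adjusted p = 8.38e-06). AL807752.3 had 251, 160 and 162 CPM in 6h_DMSO, against 80.4, 80.3 and 63.5 CPM in 4h_DMSO (log2 1.34 ± 0.13, adjusted p = 2.27e-16). AL807752.2 had 76.9, 49.7 and 47.7 CPM in 6h_DMSO, against 33.9, 26.3 and 22.2 CPM in 4h_DMSO (log2 1.08 ± 0.18, adjusted p = 1.30e-05). For all 3 features the groups were separate and the calls held with any 1 DMSO library left out. SAPCD2 was the listed G2 and mitosis gene with the highest log2 fold change.

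**Figure D2:**
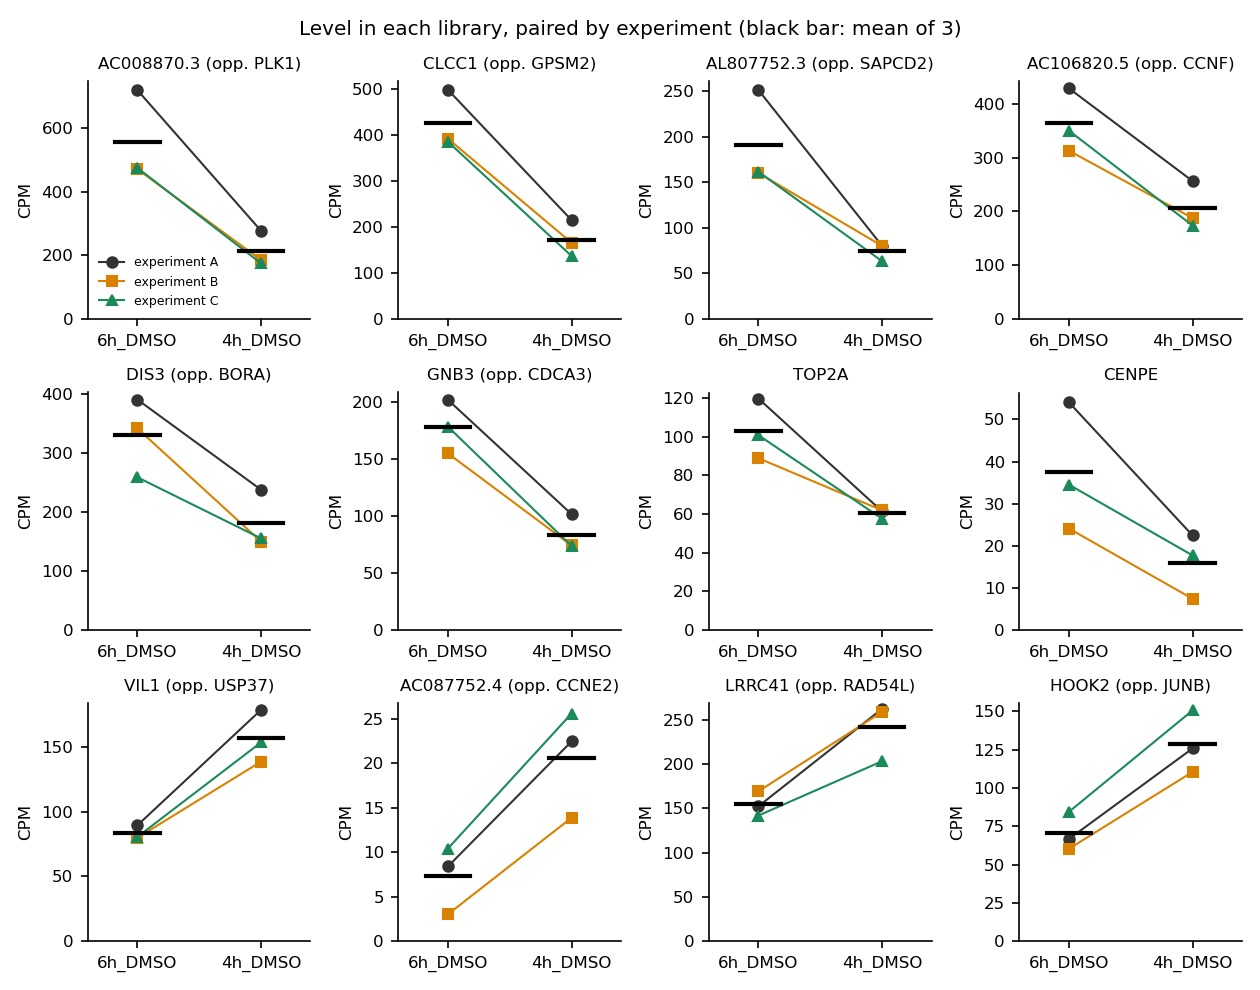
Level in CPM of 12 called features in each 6h_DMSO library (left) and 4h_DMSO library (right), with a line joining the libraries of an experiment and a black bar at the mean of 3. In the upper 8 panels each line is higher at 6h_DMSO, and in the lowest 4 panels (opposite USP37, CCNE2, RAD54L and JUNB) each line is lower at 6h_DMSO.

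A further 6 features opposite genes of mitosis rose, with calls that held whichever library was left out. AC106820.5 lies opposite CCNF, cyclin F, the substrate receptor of an SCF ubiquitin ligase. It had 429, 313 and 350 CPM in 6h_DMSO, against 257, 188 and 174 CPM in 4h_DMSO (log2 0.82 ± 0.11, adjusted p = 1.14e-09). GNB3, a G protein subunit gene, lies opposite CDCA3, a trigger of mitotic entry, and had 202, 155 and 179 CPM in 6h_DMSO, against 102, 74.3 and 73.8 CPM in 4h_DMSO (log2 1.10 ± 0.14, adjusted p = 5.81e-09). AL138789.1, opposite DEPDC1, had 366, 255 and 244 CPM in 6h_DMSO, against 182, 117 and 97.5 CPM in 4h_DMSO (log2 1.13 ± 0.12, adjusted p = 3.10e-12). In these 3 cases no 4 h library reached the lowest 6 h library. SGO1-AS1 lies opposite SGO1, the shugoshin that protects centromeric cohesion, and had 258, 225 and 190 CPM in 6h_DMSO, against 128, 136 and 126 CPM in 4h_DMSO (log2 0.78 ± 0.12, adjusted p = 1.10e-06). MYH11, a smooth muscle myosin gene opposite NDE1, a partner of dynein, had 264, 314 and 228 CPM in 6h_DMSO, against 132, 180 and 114 CPM in 4h_DMSO (log2 0.93 ± 0.11, adjusted p = 4.38e-10). HMMR-AS1 lies opposite HMMR, a spindle assembly factor, and had 174, 174 and 129 CPM in 6h_DMSO, against 106, 101 and 81.2 CPM in 4h_DMSO (log2 0.72 ± 0.13, adjusted p = 2.09e-05). Each of these was higher at 6 h in A, B and C.

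Tubulin and cytokinesis loci rose by smaller folds. AC125611.3, opposite the alpha tubulin gene TUBA1C, had 8950, 6690 and 7160 CPM in 6h_DMSO, against 6640, 4610 and 5030 CPM in 4h_DMSO (log2 0.49 ± 0.08, adjusted p = 1.43e-06). MATCAP2 lies opposite ANLN, the scaffold anillin of the contractile ring, and had 612, 427 and 498 CPM in 6h_DMSO, against 395, 317 and 355 CPM in 4h_DMSO (log2 0.52 ± 0.10, adjusted p = 1.17e-04). FAM166A, opposite the beta tubulin gene TUBB4B, had 1020, 854 and 946 CPM in 6h_DMSO, against 807, 606 and 706 CPM in 4h_DMSO (log2 0.41 ± 0.09, adjusted p = 0.00133). These 3 calls held in all 6 fits with a library left out. Features opposite PRC1, KIF23 and CIT, which act in the midzone and in cytokinesis, rose by log2 0.40 (PRC1-AS1, adjusted p = 0.003), 0.51 (KIF23-AS1, also opposite PAQR5, adjusted p = 0.00362) and 0.59 (AC002563.1, adjusted p = 0.00391). Those 3 calls ended without experiment A of 6h_DMSO (adjusted p = 0.086, 0.0665 and 0.0643) and without B of it (0.0604, 0.0556 and 0.0794), and the last pair also without B of 4h_DMSO (0.0761 and 0.0808). The PRC1-AS1 groups overlapped.

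Among called genes of the G2 and mitosis list with no annotated feature on the opposite strand, TOP2A kept its call in every fit with a library left out. TOP2A, the topoisomerase that untangles sister chromatids, had 120, 88.9 and 101 CPM in 6h_DMSO, against 61.4, 61.9 and 57.6 CPM in 4h_DMSO (log2 0.77 ± 0.15, adjusted p = 1.65e-04). CENPE, the kinetochore motor, had 54.1, 24.1 and 34.5 CPM in 6h_DMSO, against 22.5, 7.43 and 17.7 CPM in 4h_DMSO (log2 1.24 ± 0.25, adjusted p = 0.00158). TPX2, which activates AURKA on the spindle, had 71.3, 46.7 and 66.9 CPM in 6h_DMSO, against 32.4, 32.7 and 39.9 CPM in 4h_DMSO (log2 0.81 ± 0.18, adjusted p = 0.00176). Each 6 h library was above its 4 h partner, and B was lowest for CENPE in both groups. INCENP, the scaffold of the passenger complex, had 77.4, 69.3 and 64.7 CPM in 6h_DMSO, against 43.9, 37.2 and 41.8 CPM in 4h_DMSO (log2 0.78 ± 0.17, adjusted p = 0.00149). BUB1B, the checkpoint protein BubR1, had 18.2, 22.1 and 20.3 CPM in 6h_DMSO, against 8.98, 10.4 and 5.41 CPM in 4h_DMSO (log2 1.28 ± 0.30, adjusted p = 0.00627). MKI67, which coats mitotic chromosomes, had 444, 442 and 416 CPM in 6h_DMSO, against 318, 327 and 317 CPM in 4h_DMSO (log2 0.44 ± 0.10, adjusted p = 0.00316). The 6 genes had separate groups. Without experiment A of 6h_DMSO the calls of CENPE (adjusted p = 0.168), TPX2 (0.0974), INCENP (0.0741) and MKI67 (0.0812) ended, and so they did without B of 4h_DMSO for CENPE (0.0701), INCENP (0.0834) and MKI67 (0.0701) and without A of 4h_DMSO for TPX2 (0.0606). BUB1B was not called without B (0.055) or C (0.0548) of 6h_DMSO or without C of 4h_DMSO (0.143).

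The other members called were CKAP2 (log2 1.18), a microtubule-binding protein, FAM83D (1.41), which places casein kinase 1 on the spindle, HJURP (1.02, overlapped by MROH2A), the chaperone of CENPA, NDE1 (1.8) and CDCA3 (0.66), both overlapped as above, CENPF (0.54), a kinetochore protein, CDC25B (1.06), the phosphatase that starts CDK1 activation, and CDC20 (0.84), the activator of the anaphase-promoting complex. All 8 had separate groups. CKAP2 lost its call without C of 6h_DMSO (adjusted p = 0.08) and NDE1 without A of 4h_DMSO (0.133). FAM83D was not called without A of either group (0.11 for 6h_DMSO and 0.0982 for 4h_DMSO). HJURP was not called without A of 6h_DMSO (0.141) or B of 4h_DMSO (0.0837), and CDCA3 without C of either group (0.196 for 6h_DMSO and 0.0832 for 4h_DMSO). CENPF lost its call in every such fit other than that without B of 6h_DMSO (adjusted p of up to 0.47, without A of 6h_DMSO). CDC25B and CDC20 lost theirs in every such fit other than that without C of 4h_DMSO (up to 0.213 without B of 4h_DMSO, and up to 0.464 without A of 4h_DMSO).

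Over the whole G2 and mitosis list 15 of 127 measured members rose and none fell, beside 0.651% of all features that rose and 0.392% that fell. This list was chosen with earlier results of these data known, so its shares are no independent test. The median log2 fold change was 0.44, against -0.01 over all features, and 109 of the 127 were above 0. Of the 59 measured features opposite these genes 21 rose and none fell (median 0.40), so that 31 of 129 loci had a risen feature. Without the block 1 member and 6 opposite features were called, and with DESeq2 10 and 21. By role, 6 of 30 members for spindle assembly and position rose, 3 of 21 for kinetochore and centromere, 2 of 15 for mitotic kinases, 2 of 16 for chromosome structure, 1 of 16 for cyclins and CDK1, and 1 of 8 for the anaphase-promoting complex. None of 12 mitotic kinesins, 7 cytokinesis genes or 5 transcription factors was called on its own feature. Of the measured features opposite them, 2 of 7 rose for the kinesins, 4 of 5 for the cytokinesis genes and 0 of 4 for the transcription factors. Median log2 fold changes were 0.62 for the kinesins and 0.52 for the cytokinesis genes, against 0.11 for cyclins and CDK1 and 0.09 for the transcription factors.

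Several mitotic genes in common use as markers did not pass the test. CCNB1, cyclin B1, had 9.32, 8.04 and 7.67 CPM in 6h_DMSO and 4.99, 5.94 and 3.45 CPM in 4h_DMSO (log2 0.81 ± 0.41, adjusted p = 0.566). CDK1 had 15.8, 7.03 and 12.1 CPM in 6h_DMSO and 9.48, 6.94 and 5.91 CPM in 4h_DMSO (log2 0.64 ± 0.36, adjusted p = 0.649). AURKA had 5.13, 5.02 and 11.5 CPM in 6h_DMSO and 5.49, 4.46 and 3.45 CPM in 4h_DMSO (log2 0.66 ± 0.43, adjusted p = 0.735). None of these 3 genes passed the test, with standard errors of 0.36 to 0.43. All 3 lack an annotated opposite feature, so their low values carry the limit of strand given above. FOXM1, overlapped by ITFG2, had 45.2, 37.7 and 46 CPM in 6h_DMSO and 32.4, 39.6 and 44.8 CPM in 4h_DMSO (log2 0.15 ± 0.18, adjusted p = 0.896). ITFG2 held more counts, with 1570, 1200 and 1250 CPM in 6h_DMSO and 1450, 1030 and 1080 CPM in 4h_DMSO. It was not called (log2 0.18 ± 0.09, adjusted p = 0.505). UBE2C, the ubiquitin-conjugating enzyme of the anaphase-promoting complex, had 25.2, 15.6 and 32.3 CPM in 6h_DMSO and 25, 25.8 and 22.2 CPM in 4h_DMSO (log2 0.00 ± 0.25, adjusted p = 0.999). UBE2C lacks an annotated opposite feature too and carries the same limit of strand. CCNA2, cyclin A2, had 121, 97.9 and 100 CPM in 6h_DMSO and 123, 95.1 and 135 CPM in 4h_DMSO (log2 -0.14 ± 0.13, adjusted p = 0.852). In FOXM1, UBE2C, CCNA2, CDK1 and AURKA the groups overlapped, while those of CCNB1 were separate. Further mitotic panel genes not called also had separate groups, higher at 6 h, as did 9.61% of all features in either direction. Among them were CENPA (log2 1.28), KIF14 (1.13), PSRC1 (0.99), WEE1 (0.89), ASPM (0.68), CCNF (0.63) and UBE2S (0.41). The margin was small for PSRC1 (9.04 against 8.92 CPM) and ASPM (29.1 against 28.5 CPM), lowest 6 h against highest 4 h library. The S phase gene MCM6 also had separate groups, higher at 6 h. The groups overlapped for KIF20A (0.61), BUB1 (0.56), HMMR (0.32), CCNB2 (0.11) and AURKB (-0.12), among others. CDC23, opposite KIF20A, rose, with 32.2, 25.6 and 17 CPM in 6h_DMSO, against 9.98, 12.4 and 5.41 CPM in 4h_DMSO. Its log2 fold change was 1.44 ± 0.28 (adjusted p = 3.40e-04) and its groups were separate. The call of CDC23 ended without A of 6h_DMSO (adjusted p = 0.0938). BRD8, also opposite KIF20A, was not called (log2 0.31, adjusted p = 0.886). EXOSC9, the exosome gene opposite CCNA2, rose, with 572, 316 and 436 CPM in 6h_DMSO and 419, 183 and 332 CPM in 4h_DMSO (log2 0.53 ± 0.11, adjusted p = 0.0011). It was higher at 6 h within each experiment, though the groups overlapped, and its call ended without A of 6h_DMSO (adjusted p = 0.0909) and without B of 4h_DMSO (0.0666).

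**Figure D3:**
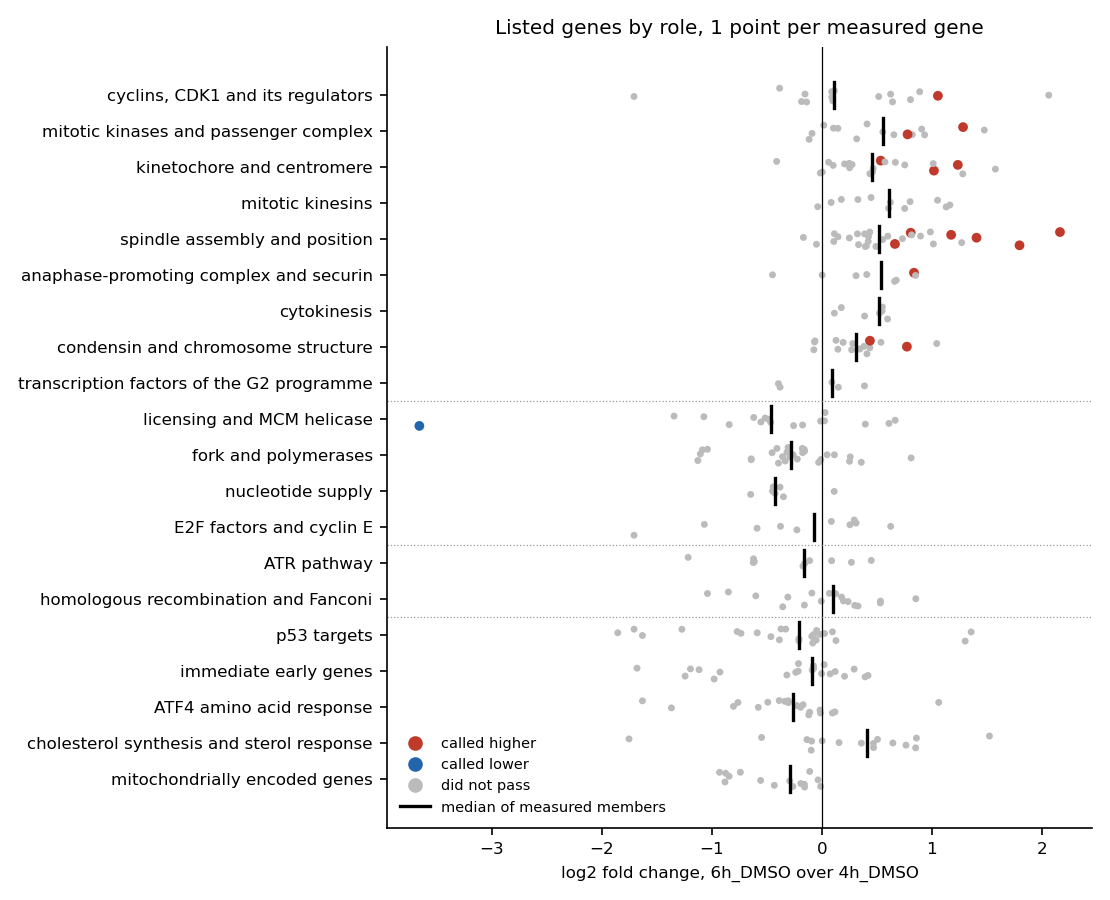
Log2 fold change of 6h_DMSO over 4h_DMSO (x axis) for each measured gene of the lists, by role or list, with the median as a black line. Red and blue points were called higher and lower, and grey points did not pass. Red points occur in the G2 and mitosis roles above the first dotted line, where 15 of 127 genes rose, and CDC6 is the blue point among the S phase roles.

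Of the S phase genes, 1 of 62 measured members fell on its own feature and none rose, beside 0.392% of all features that fell and 0.651% that rose. A single call is too few to set this list apart from those shares. The median log2 fold change was -0.31, with 17 above 0. The gene that fell was CDC6, which loads the MCM helicase. It had 1, 0 and 1 counts in 6h_DMSO, against 11, 2 and 18 counts in 4h_DMSO. The summed counts per total gave a ratio of 0.0673 with an exact 95% interval of 0.0078 to 0.264, which covers counting error only. The fitted log2 fold change was -3.66 ± 0.92 (adjusted p = 0.0157). The call ended in 5 of the 6 fits with a library left out, without A, B or C of 6h_DMSO (adjusted p = 0.153, 0.106 and 0.0683) and without A or C of 4h_DMSO (0.0665 and 0.341). HELLS, a chromatin remodeller, had 6.52, 7.03 and 4.38 CPM in 6h_DMSO and 16, 11.4 and 10.8 CPM in 4h_DMSO (log2 -1.09 ± 0.37, adjusted p = 0.162). PCNA, the sliding clamp, had 6.06, 5.52 and 3.29 CPM in 6h_DMSO and 10.5, 7.43 and 5.41 CPM in 4h_DMSO (log2 -0.64 ± 0.42, adjusted p = 0.729). Neither passed the test. MCM2 (overlapped by TPRA1) had log2 -0.47 (adjusted p = 0.709) and RRM2 -0.42 (adjusted p = 0.56). MCM6 went the other way, with 4.19, 3.01 and 3.29 CPM in 6h_DMSO and 2, 1.98 and 2.46 CPM in 4h_DMSO. It was not called either (log2 0.67 ± 0.69, adjusted p = 0.874).

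Of the 28 features measured opposite S phase genes 4 fell and 1 rose (median log2 -0.18), beside 0.392% of all features that fell and 0.651% that rose. VIL1, the villin gene, lies opposite USP37, the deubiquitinase of cyclin A, and had 89.5, 79.9 and 80.5 CPM in 6h_DMSO, against 179, 139 and 154 CPM in 4h_DMSO (log2 -0.91 ± 0.12, adjusted p = 1.69e-08). AC087752.4 lies opposite CCNE2, cyclin E2, and had 8.39, 3.01 and 10.4 CPM in 6h_DMSO, against 22.5, 13.9 and 25.6 CPM in 4h_DMSO (log2 -1.54 ± 0.30, adjusted p = 3.40e-04). Both pairs of groups were separate, and both calls held with any library left out. INTS8, an Integrator subunit gene also opposite CCNE2, had 72.2, 23.6 and 72.3 CPM in 6h_DMSO, against 197, 69.9 and 151 CPM in 4h_DMSO (log2 -1.31 ± 0.24, adjusted p = 0.00978). It fell within each experiment, but the groups overlapped because both B libraries were low, and the call ended without A of 6h_DMSO (adjusted p = 0.0999) and without C of 4h_DMSO (0.0805). CCNE2's own feature had 53.6, 48.7 and 42.2 CPM in 6h_DMSO and 44.4, 36.2 and 37.4 CPM in 4h_DMSO (log2 0.30 ± 0.18, adjusted p = 0.701). HSD17B6, a steroid dehydrogenase gene opposite the primase gene PRIM1, had 21.9, 16.1 and 23 CPM in 6h_DMSO, against 54.9, 33.7 and 32.5 CPM in 4h_DMSO (log2 -0.99 ± 0.21, adjusted p = 0.00162), and was not called without A of 6h_DMSO (0.0678) or of 4h_DMSO (0.129).

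LRRC41, opposite RAD54L, a translocase of homologous recombination, had 152, 169 and 142 CPM in 6h_DMSO, against 263, 259 and 203 CPM in 4h_DMSO (log2 -0.64 ± 0.11, adjusted p = 3.02e-05), and its call held with any library left out. AL354864.1 lies opposite CLSPN, claspin, which passes the signal of ATR to CHK1, and had 92.3, 105 and 86 CPM in 6h_DMSO, against 165, 136 and 125 CPM in 4h_DMSO (log2 -0.59 ± 0.13, adjusted p = 0.00286). That call ended without A (adjusted p = 0.0999) or C (0.0524) of 6h_DMSO and without A of 4h_DMSO (0.121). None of the 28 measured genes for the ATR pathway and homologous recombination was called on its own feature. Of the 12 features measured opposite them these 2 fell, beside 0.392% of all features that fell. Among the features opposite S phase genes the one that rose was KIF7, a hedgehog pathway kinesin gene opposite TICRR, which acts in origin firing, with 229, 195 and 188 CPM in 6h_DMSO, against 152, 132 and 116 CPM in 4h_DMSO (log2 0.62 ± 0.12, adjusted p = 2.09e-04).

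The levels along the whole course differed in shape between features, given here as means ± SD over 3 libraries with no test beyond the passage itself. AC106820.5 (opposite CCNF) had 83 ± 6.43 CPM in arrested cells, 206 ± 44.3 CPM at 4 h, 364 ± 59.2 CPM at 6 h and 156 ± 12.8 CPM in cycling cells. AC008870.3 (opposite PLK1) had 113 ± 15.7, 212 ± 56.3 and 555 ± 142 CPM at these stages and 398 ± 40.8 CPM in cycling cells. These features were already above arrest at 4 h. AL807752.3 (opposite SAPCD2) had 65.6 ± 3.59 CPM in arrested cells and 74.7 ± 9.7 CPM at 4 h, then 191 ± 52.1 CPM at 6 h and 214 ± 14.1 CPM in cycling cells. TOP2A had 56.3 ± 6.96, 60.3 ± 2.36 and 103 ± 15.6 CPM along the course and 49.7 ± 6.69 CPM in cycling cells. For this pair the difference lay between 4 h and 6 h, and TOP2A at 6 h was above cycling cells (42.1 to 54.8 CPM), while the 6 h libraries of AL807752.3 lay on both sides of cycling cells (200 to 228 CPM).

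VIL1 (opposite USP37) had 200 ± 20.4 CPM in arrested cells, 157 ± 20.2 CPM at 4 h, 83.3 ± 5.37 CPM at 6 h and 203 ± 16.4 CPM in cycling cells. INTS8 (opposite CCNE2) had 366 ± 145, 139 ± 64.2 and 56.1 ± 28.1 CPM along the course and 241 ± 26.3 CPM in cycling cells. LRRC41 (opposite RAD54L) had 288 ± 23.9, 242 ± 33.3 and 155 ± 13.8 CPM, and 198 ± 8.47 CPM in cycling cells. Their means stepped down at each stage and at 6 h were below that of cycling cells.

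**Figure D4:**
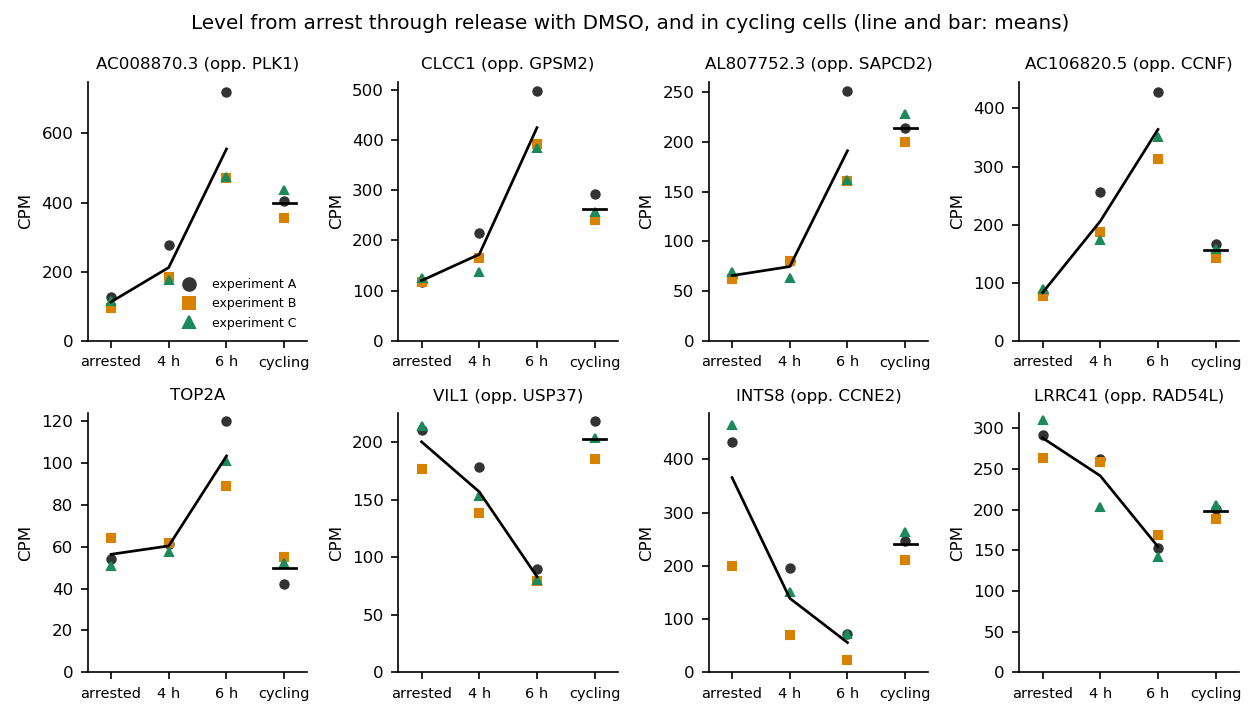
Level in CPM of 8 called features in arrested cells, at 4 h and 6 h of release with DMSO, and in cycling cells, with 1 point per library and experiment and a line through the means. The features opposite PLK1, GPSM2 and CCNF climb at both steps, those opposite SAPCD2 and TOP2A itself mainly between 4 h and 6 h, and the 3 features opposite USP37, CCNE2 and RAD54L step down.

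For 5 of the 53 fallen features, with different partners, the mean at 4 h was above those at 6 h, in arrested cells and in cycling cells. How many of the 53 had this shape was not counted. GREM1-AS1 lies opposite GREM1, an antagonist of BMP ligands, and had 440, 420 and 413 CPM in 6h_DMSO, against 789, 582 and 580 CPM in 4h_DMSO (log2 -0.60 ± 0.10, adjusted p = 8.09e-06). MSC-AS1, opposite MSC and TRPA1, had 22.4, 24.1 and 24.7 CPM in 6h_DMSO, against 71.9, 50 and 49.7 CPM in 4h_DMSO (log2 -1.26 ± 0.20, adjusted p = 1.91e-06). NR4A1AS lies opposite NR4A1, an immediate early nuclear receptor, and had 23.3, 17.6 and 26.8 CPM in 6h_DMSO, against 55.9, 30.2 and 62.5 CPM in 4h_DMSO (log2 -1.11 ± 0.21, adjusted p = 1.17e-04). In all 3 the groups were separate. HOOK2, opposite the immediate early gene JUNB, had 66.6, 60.3 and 84.4 CPM in 6h_DMSO, against 126, 110 and 151 CPM in 4h_DMSO (log2 -0.87 ± 0.14, adjusted p = 2.05e-06). LIF-AS2, opposite the cytokine gene LIF, had 117, 128 and 132 CPM in 6h_DMSO, against 236, 183 and 224 CPM in 4h_DMSO (log2 -0.76 ± 0.12, adjusted p = 1.59e-06). These 5 calls held in all 6 fits with a library left out, and GREM1-AS1 and LIF-AS2 were chosen after their values were seen. In arrested cells the means were 213 ± 16.9 CPM for GREM1-AS1, 27.4 ± 3.97 CPM for MSC-AS1, 18.8 ± 3.73 CPM for NR4A1AS, 89.4 ± 11.7 CPM for HOOK2 and 149 ± 28 CPM for LIF-AS2. At 6 h GREM1-AS1 was still above arrested cells, NR4A1AS had a mean of 22.6 ± 4.68 CPM, and the means of the other 3 were below those of arrested cells. None of the 21 measured immediate early genes was called on its own feature, and the 2 features here (NR4A1AS and HOOK2) were those that fell among 5 measured opposite them, beside 0.392% of all features.

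Features opposite genes of the ATF4 amino acid response fell at 4 of 13 measured, beside 0.392% of all features that fell, with none of the 20 measured genes called on its own feature (median log2 -0.27, and -0.25 for the opposite features). NDUFA4L2, opposite the serine hydroxymethyltransferase gene SHMT2, had 1.4, 3.52 and 2.74 CPM in 6h_DMSO, against 5.49, 15.9 and 5.91 CPM in 4h_DMSO (log2 -1.78 ± 0.47, adjusted p = 0.0241). CEBPB-AS1, opposite the transcription factor gene CEBPB, had 91.3, 109 and 118 CPM in 6h_DMSO, against 184, 142 and 145 CPM in 4h_DMSO (log2 -0.56 ± 0.13, adjusted p = 0.00317). SLC7A11-AS1, opposite the cystine carrier gene SLC7A11 and LINC00616, and AC006030.1, opposite the folate enzyme gene MTHFD2, fell by 0.47 and 0.39 on the log2 scale (adjusted p = 0.0113 and 0.00627). Each of these 4 calls ended without A of 6h_DMSO (adjusted p = 0.173, 0.434, 0.216 and 0.125) and without A of 4h_DMSO (0.0501, 0.0796, 0.211 and 0.246). Some ended with other libraries left out too: NDUFA4L2 without B of 6h_DMSO (0.287) or B or C of 4h_DMSO (0.251 and 0.0504), SLC7A11-AS1 without C of 6h_DMSO (0.182) and AC006030.1 without B of 6h_DMSO (0.0697).

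No member of the other lists was called in either direction, beside 1.04% of all features. This holds for 25 p53 targets (median log2 -0.21, with 5 above 0), 11 FOXO targets, 25 YAP and TEAD targets, 31 ribosome biogenesis genes, 16 sterol genes (median 0.41), 15 mitochondrially encoded genes (median -0.29, with none above 0) and the 2 measured of 44 replication histones. CDKN1A, the CDK inhibitor p21, had 17.7, 47.2 and 35.6 CPM in 6h_DMSO and 28, 74.3 and 48.7 CPM in 4h_DMSO. It was lower at 6 h in each experiment, but the groups overlapped and the test did not call it (log2 -0.59 ± 0.20, adjusted p = 0.194). INSIG1, a sterol sensor, had 6.06, 4.52 and 5.48 CPM in 6h_DMSO and 2.5, 0.991 and 1.97 CPM in 4h_DMSO (log2 1.53 ± 0.54, adjusted p = 0.191).

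Some of the largest changes lay outside the lists. VWA3B had 15.4, 22.1 and 9.86 CPM in 6h_DMSO, against 0.998, 5.94 and 3.45 CPM in 4h_DMSO, with the highest fold change of all calls (log2 2.20 ± 0.40, adjusted p = 6.17e-05). AC005339.1, opposite TNFAIP8L1, had 135, 97.4 and 72.3 CPM in 6h_DMSO, against 28.9, 28.2 and 27.1 CPM in 4h_DMSO (log2 1.84 ± 0.17, adjusted p = 2.27e-16). Their groups were separate and both calls held with any library left out. MT-TD, a mitochondrial tRNA, had 3 counts in 6h_DMSO and 35 in 4h_DMSO in all, a ratio of 0.0894 with an exact 95% interval of 0.0176 to 0.284 (adjusted p = 0.00833), and its call ended without A or C of 6h_DMSO (0.0812 and 0.154) and without C of 4h_DMSO (0.134). BMF-AS1, opposite the apoptosis gene BMF, had 17.2, 10 and 12.1 CPM in 6h_DMSO, against 40.4, 33.7 and 33 CPM in 4h_DMSO (log2 -1.47 ± 0.24, adjusted p = 3.69e-06).

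Chosen after their values were seen, 3 more genes without an opposite feature rose with calls that held in all 6 fits with a library left out. KPNA2, an importin alpha, had 64.3, 60.3 and 53.2 CPM in 6h_DMSO, against 34.9, 30.2 and 31.5 CPM in 4h_DMSO (log2 0.88 ± 0.18, adjusted p = 0.0011). LGALS3, the lectin galectin-3, had 42.4, 46.7 and 31.8 CPM in 6h_DMSO, against 17, 15.9 and 18.7 CPM in 4h_DMSO (log2 1.22 ± 0.23, adjusted p = 1.51e-04). CCDC85B had 2350, 2170 and 2000 CPM in 6h_DMSO, against 1540, 1290 and 1480 CPM in 4h_DMSO (log2 0.60 ± 0.08, adjusted p = 2.79e-08). All 3 had separate groups.

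The authors' deposited table holds the same comparison as 4 h over 6 h. Of 4485 features with an adjusted p in the authors' deposited table, 33 were called (0.736%), 28 of them lower at 4 h. All 33 (100% of that list) were also called here in the same direction, and they make up 23.4% of the 141 features called here. In the authors' deposited table CLCC1 had a log2 of -1.22 and AC008870.3 one of -1.27, 4 h over 6 h.

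The passage with DMSO was set against the passage with the ATR inhibitor in the same fit, as the difference of the 2 log2 fold changes (DMSO minus inhibitor). This difference was called for 6 of 13510 features (0.0444%), each with a more positive log2 fold change under DMSO. AC106820.5 (opposite CCNF) had 429, 313 and 350 CPM in 6h_DMSO, against 257, 188 and 174 CPM in 4h_DMSO. With the inhibitor it had 448 and 345 CPM in A and B of 6h_ATRi, against 485, 453 and 381 CPM in A, B and C of 4h_ATRi. The log2 fold change was thus 0.82 with DMSO and -0.20 with the inhibitor, a difference of 1.02 ± 0.16 (adjusted p = 7.58e-06). DIS3 (opposite BORA and PIBF1) had 388 and 310 CPM in 6h_ATRi, against 438, 429 and 306 CPM in 4h_ATRi, a log2 of -0.24, against 0.87 with DMSO (difference 1.12 ± 0.17, adjusted p = 7.58e-06). Both features were higher with the inhibitor than with DMSO at 4 h in every experiment.

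The features opposite PLK1 and GPSM2 differed in the size of the step. AC008870.3 had 1010 and 735 CPM in 6h_ATRi, against 632, 610 and 471 CPM in 4h_ATRi, a log2 of 0.54, against 1.38 with DMSO (difference 0.84, adjusted p = 0.00172). CLCC1 had 714 and 619 CPM in 6h_ATRi, against 450, 484 and 328 CPM in 4h_ATRi, a log2 of 0.59, against 1.31 with DMSO (difference 0.72, adjusted p = 0.0219). The lowest 4h_ATRi library was thus above the highest 4h_DMSO library for both. None of the 6 differences was called without the block (adjusted p = 1 each), and without experiment A of 6h_DMSO 2 remained, those of DIS3 and AC106820.5 (4.35e-04 each).

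**Figure D5:**
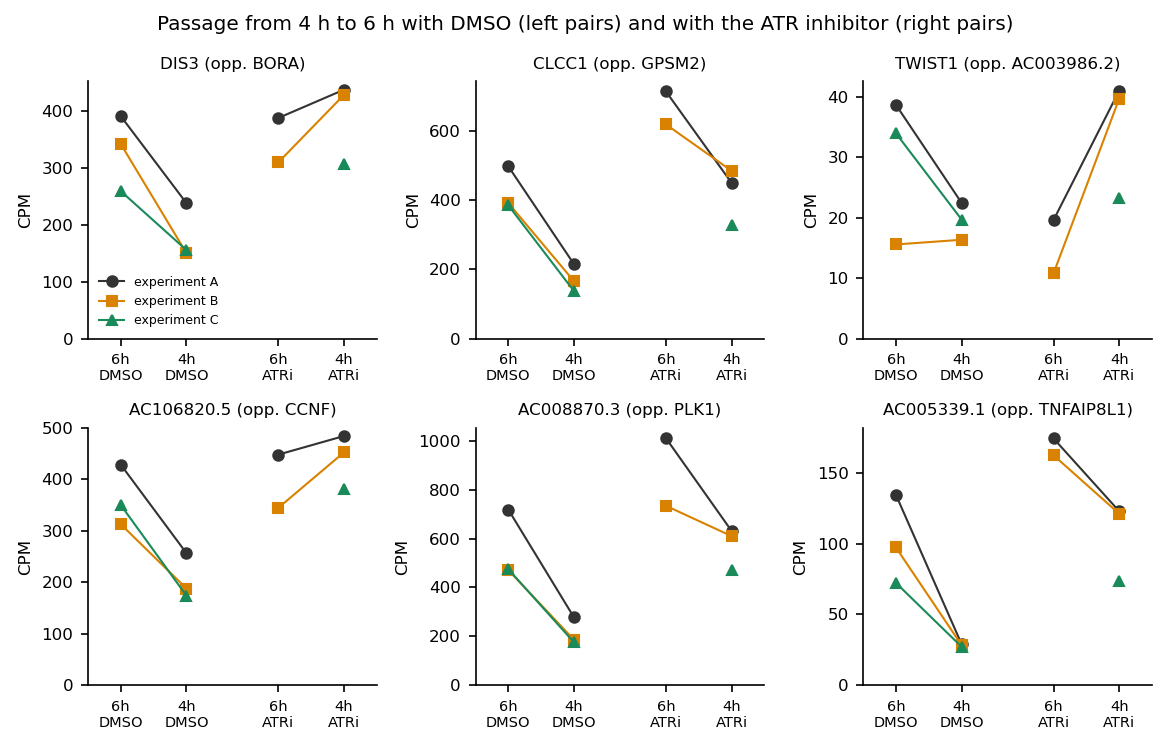
Level in CPM of the 6 features whose passage differed between DMSO and the ATR inhibitor, with the 6h_DMSO and 4h_DMSO libraries in the left pair and the 6h_ATRi and 4h_ATRi libraries in the right pair, joined by experiment. Experiment C has no 6h_ATRi point. For the features opposite PLK1, GPSM2 and TNFAIP8L1 the DMSO line is steeper than the inhibitor line of the same experiment, in A and in B. Across experiments some DMSO lines are less steep than an inhibitor line, and the test was on the log2 scale. The inhibitor lines run the other way for those opposite BORA and CCNF and for TWIST1, where B with DMSO is nearly level.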

How the data were processed

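Libraries were prepared from Trizol RNA with a stranded mRNA kit from KAPA, per the labels' protocols. The authors deposited whole-number read counts per gene, not normalised. The submitters' processing notes name TopHat, GRCh37, HTSeq and DESeq2; no versions and no strand setting were found in them. A further deposited table gives log2 fold changes and adjusted p-values. The 6 DMSO libraries were compared within a fit of all 17 by edgeR 4.0.16 in R 4.3.3 (filterByExpr with count 10 and total 15 as minimum; TMM; glmQLFit with robust estimation; glmQLFTest, two-sided). The fit had a mean per condition and the experiment letter as a replicate block, and p-values were adjusted over all 13510 features kept of 60252. For 6h_ATRi, experiment C is not analysed here.

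The design text names 3 independent experiments, and the letters were taken as these. Deviations from the group means correlated at 0.311, 0.516 and 0.222 between 6h_DMSO and 4h_DMSO libraries of the same letter (A, B and C), and at 0.137 at most across letters, so the letters were taken to pair the libraries. Deviations cancel out within a group, so these correlations constrain one another. They mostly set B apart. A against C (0.137 and 0.135) came near C against C, so the pairing of A apart from C has weak backing. Alternatives were no block, DESeq2 1.42.0, RLE factors, no filter, fewer libraries, and leaving out abundant features. Names and overlaps between strands came from GENCODE for GRCh38, since no annotation of GRCh37 was used, and no coordinates were taken from it. Named features are the 15 largest changes in each direction, a panel of 56 genes with the features opposite them, and called list members. The comparison, lists and panel were chosen with earlier results of these data known. Counts carry no molecular identifiers.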

Additional observations from a re-analysis of the deposited data

Results flagged for a closer look

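The passage from 4 h to 6 h differed between DMSO and the ATR inhibitor for 6 features in the test of the difference itself (edgeR, experiment as block), given as log2 fold change with DMSO minus log2 fold change with the inhibitor. The difference was 1.12 for DIS3 (opposite BORA and PIBF1; adjusted p = 7.58e-06), 1.02 for AC106820.5 (opposite CCNF; 7.58e-06), 0.84 for AC008870.3 (opposite PLK1; 0.00172) and 0.72 for CLCC1 (opposite GPSM2; 0.0219).

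For AC005339.1, opposite TNFAIP8L1, the difference was 1.25 (adjusted p = 0.00172). It had 135, 97.4 and 72.3 CPM in 6h_DMSO, against 28.9, 28.2 and 27.1 CPM in 4h_DMSO, and 175 and 163 CPM in 6h_ATRi, against 123, 121 and 73.6 CPM in 4h_ATRi. For TWIST1, a transcription factor gene overlapped by AC003986.2, it was 1.78 (adjusted p = 0.0219). TWIST1 had 38.7, 15.6 and 34 CPM in 6h_DMSO, against 22.5, 16.3 and 19.7 CPM in 4h_DMSO, and 19.6 and 10.8 CPM in 6h_ATRi, against 41, 39.7 and 23.3 CPM in 4h_ATRi. Its passage with DMSO alone was not called (log2 0.56, adjusted p = 0.431). At an unadjusted p under 0.05 there were 784 of the 13510 features tested, where a share of about 0.05 would arise with no difference at all. Without experiment B, which leaves 6h_ATRi with 1 library that is assumed to vary like the others, AC106820.5 was still called (adjusted p = 0.00964) and the other 5 were not (0.0585 to 0.572). Without A of 6h_DMSO the difference was not called for AC008870.3 (0.0916), AC005339.1 (0.218), CLCC1 (0.257) and TWIST1 (0.441).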

How the results depend on the processing

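The number of calls depended most on the replicate block. Without it 9 features were called higher and 2 lower, against 88 and 53 with it, and all 11 were among the 141. With only the 6 DMSO libraries, paired by experiment, 201 were higher and 124 lower, and 138 of the 141 were among them. With a DMSO library left out in turn the counts ran from 48 to 86 higher and from 20 to 36 lower. The lowest of both came without A of 6h_DMSO; without B or C of 6h_DMSO there were 35 and 34 lower, and without A or C of 4h_DMSO 23 and 32. DESeq2 gave 71 and 37, RLE factors 94 and 53, no filter 86 and 46, and the fit without experiment B 62 and 44. The difference from the passage with the inhibitor was called for 0 features without the block and 3 with DESeq2, and for 2 to 6 with a library left out, with the 2 without A of 6h_DMSO and 3 without C of 4h_DMSO. None of the 37 called features among the 81 recomputed changed sign, which was unlikely since all calls moved the same way in the 3 experiments. Among the 44 not called, 8 did (UBE2C, at 0.00, is not counted), with log2 fold changes of at most 0.32 in size. Without the block 32 of the 37 lost their call. The cause was not tested. Depth limits features of few counts: at 1 CPM a library holds about 2.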
